A study of Mus musculus with 3 samples.

Results

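The mouse genome holds 39 protein-coding Hox genes, the homeobox transcription factors that lie in 4 chromosomal clusters called A, B, C and D, and all 39 have a row among the 24346 gene symbols of the data described here. The members are every symbol made of Hox, a cluster letter and a number, a rule that reads the name and no level. The number is the paralogue group: *Hoxa5*, *Hoxb5* and *Hoxc5* are group 5 copies in different clusters. The data are RNA-seq levels of endothelial cells (ECs) of the adult lung taken at 6 to 8 weeks of age from male C57BL/6J mice of wild type genotype, in a set of 3 libraries named S38, S44 and S52. ECs were labelled in the living animal with an antibody to VE-cadherin, then sorted as CD31+ CD45- Podoplanin- cells and used without culture. Poly-A selected RNA was read as 51 bp pairs without strand information, and levels are given in FPKM, fragments per kilobase of gene scaled to the size of the library, so that genes of different length can be compared. The ECs of other organs and stages were not analysed here. No label says that the 3 libraries came from separate mice, so the SDs below measure the spread between libraries, which may be technical.

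Hox proteins carry a DNA-binding homeodomain and set the identity of tissues along the head-to-tail axis of the embryo. Within a cluster the genes stand in the order in which they are switched on: low numbers at one end are active early and towards the head, high numbers late and towards the tail, limbs and genitals. Polycomb proteins keep unused stretches silent, Trithorax-type complexes with MLL enzymes keep used stretches active, and adult cells often retain a Hox pattern that reflects where in the body they arose. In the lung, *Hoxa5* and *Hoxb5* are best known from the development of the airways and the mesenchyme.

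RNA of sorted adult lung ECs held transcripts of an unbroken block of Hox genes, groups 2 to 5 of clusters A and B. *Hoxa5* was far above the rest, and clusters C and D gave almost nothing. Markers of other lung cells were also present, and the part of such cells in the Hox levels was not tested. Of the 39 Hox genes 10 had a mean of at least 1 FPKM, here called detected, against 48.3% of all rows of the table. Cluster A gave 5 of its 11 members and cluster B 5 of its 10, shares near that of all rows. Clusters C and D gave none of 9 each. The detected genes were *Hoxa2*, *Hoxa3*, *Hoxa4*, *Hoxa5*, *Hoxa7*, *Hoxb2*, *Hoxb3*, *Hoxb4*, *Hoxb5* and *Hoxb6*, and 9 of them reached 1 FPKM in every library. A further 14 of the 39 Hox genes were listed at 0 in all 3 libraries, against 29.5% of all rows. The median of the 39 means was 0.0376 FPKM, beside 0.784 FPKM over all rows.

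**Figure D1:**
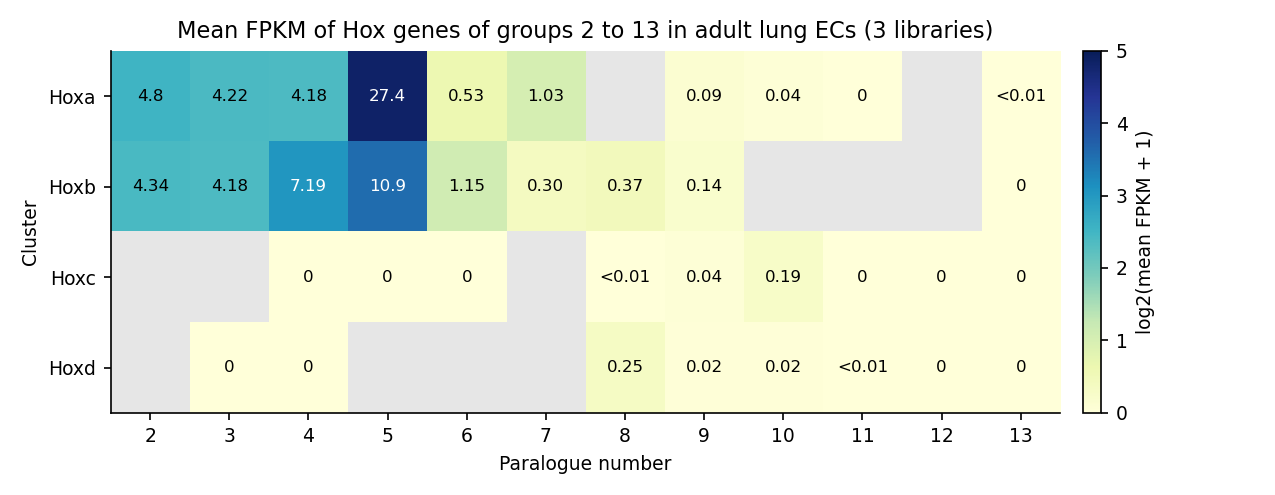
Each square is 1 Hox gene of groups 2 to 13, placed by cluster (vertical axis) and paralogue number (horizontal axis); the number is its mean FPKM over 3 libraries, the colour is log2 of that mean plus 1, and grey marks positions with no gene. The filled block covers groups 2 to 5 of clusters A and B, with the darkest square, *Hoxa5*, at 27.4 FPKM.

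The regulatory DNA of some detected genes and of some listed at 0 is shown first. It is the 250 bases before the transcription start in RefSeq on GRCm38.p6. Capitals mark any of 5 short motifs that were searched on both strands. The core promoter motifs were the TATA box, written TATAAA here, the box named after its letters CCAAT, and the GC box with the letters GGGCGG. The remaining motifs are forms bound by the partners of Hox proteins: Pbx with a Hox protein at TGATNNAT, and Meis proteins at TGACAG. *Hoxa5* (chr6:52204588-52204837, minus strand), *Hoxb4* (chr11:96318017-96318266, plus strand) and *Hoxa2* (chr6:52164832-52165081, minus strand) are the 3 detected members whose window holds no annotated exon. *Hoxd13* (chr2:74667975-74668224, plus strand) and *Hoxd4* (chr2:74721728-74721977, plus strand) were listed at 0 in every library and are shown because their base composition lies far apart.
Hoxa5: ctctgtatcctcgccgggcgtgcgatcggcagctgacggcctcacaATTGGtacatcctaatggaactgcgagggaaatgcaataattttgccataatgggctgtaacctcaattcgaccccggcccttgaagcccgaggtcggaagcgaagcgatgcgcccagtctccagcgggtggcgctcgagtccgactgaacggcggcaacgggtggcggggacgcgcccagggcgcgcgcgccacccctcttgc
Hoxb4: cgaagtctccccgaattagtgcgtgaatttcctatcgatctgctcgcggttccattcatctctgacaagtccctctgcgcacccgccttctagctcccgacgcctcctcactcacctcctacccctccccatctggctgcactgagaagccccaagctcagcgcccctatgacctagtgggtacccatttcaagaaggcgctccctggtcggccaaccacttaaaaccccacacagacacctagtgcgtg
Hoxa2: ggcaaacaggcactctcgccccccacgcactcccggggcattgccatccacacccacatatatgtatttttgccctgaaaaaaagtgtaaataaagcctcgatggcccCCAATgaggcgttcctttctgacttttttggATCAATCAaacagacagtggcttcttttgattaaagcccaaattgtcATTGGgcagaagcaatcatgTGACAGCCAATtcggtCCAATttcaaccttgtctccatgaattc
Hoxd13: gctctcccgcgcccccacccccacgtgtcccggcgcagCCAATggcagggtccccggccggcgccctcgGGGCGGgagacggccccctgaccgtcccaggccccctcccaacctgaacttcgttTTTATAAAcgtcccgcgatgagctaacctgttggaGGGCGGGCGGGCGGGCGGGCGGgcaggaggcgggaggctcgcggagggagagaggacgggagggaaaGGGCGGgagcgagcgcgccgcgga
Hoxd4: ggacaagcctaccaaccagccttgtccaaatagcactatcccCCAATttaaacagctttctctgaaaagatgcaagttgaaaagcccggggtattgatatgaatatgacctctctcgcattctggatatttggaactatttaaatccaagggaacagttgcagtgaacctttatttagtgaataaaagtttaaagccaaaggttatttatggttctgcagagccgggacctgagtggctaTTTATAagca
These windows differ widely within each level class. The *Hoxa5* window is 63.6% G and C with 28 CpG dinucleotides, the *Hoxb4* window 58% with 14, and the *Hoxa2* window 46.4% with 6. The *Hoxd13* window, of a gene listed at 0, is richer than any of them, at 74.4% with 31 CpG, while the *Hoxd4* window is at 40.4% with 3.

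RefSeq gave 24 such windows for 22 of the 39 Hox genes, with none for *Hoxb5*, and 14 of the 24 held no annotated exon. As a family they were rich in CpG, with a median of 12.5 per window against 6 over the 32851 windows used, and a median G and C content of 58.6% against 52.4%. CCAAT was in 58.3% of the Hox windows and in 33.8% of all windows. The GC box was in 41.7% against 32.7%, TATAAA in 16.7% against 12.4%, TGATNNAT in 16.7% against 7.68%, and TGACAG in 8.33% against 15.9%. The 2 Hox windows with TGACAG were those of the detected genes *Hoxa2* and *Hoxa3*. All 250 bases of the *Hoxa3* window are annotated as exon, and a match in letters is not a bound site. The 5 windows of detected genes ranged from 6 to 28 CpG and the 19 windows of the other genes from 2 to 35, so that the ranges overlapped. Neighbouring motifs can overlap one another, as the runs of GGGCGG before *Hoxd13* do.

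*Hoxa5*, a regulator of lung development, had the highest level of the family. It lies at chr6:52201754-52204587 on the minus strand in 2 exons (positions here and below are those of GRCm38 in GENCODE M21). Its level was 28.2 FPKM in S38, 31.6 in S44 and 22.2 in S52, a mean of 27.4 ± 4.76 FPKM (SD, n = 3), rank 3065 among all rows. No other Hox gene came near that level, as the highest value outside *Hoxa5* was 11.9 FPKM. *Hoxa5* alone made up 37.99% ± 5.08 of the summed FPKM of all Hox genes, and its 51-base stretches are its own: 0 of 1827 such windows of its transcript recur in another annotated transcript.

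*Hoxb5*, its paralogue in cluster B and likewise known in the branching lung, came next. It lies at chr11:96303336-96306121 on the plus strand. Its level was 11.9 FPKM in S38, 11.2 in S44 and 9.47 in S52, a mean of 10.9 ± 1.25 FPKM. *Hoxa5* was above it in all 3 libraries, by 2.38, 2.82 and 2.35 times, and the ranges did not overlap. Together the group 5 genes gave 53.1% ± 6.27 of the summed Hox FPKM, although *Hoxc5* was listed at 0 throughout.

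*Hoxb4*, known for the self-renewal of blood stem cells, followed *Hoxb5*. It lies at chr11:96318267-96321638 on the plus strand and was at 7.94, 7.49 and 6.12 FPKM, a mean of 7.19 ± 0.946 FPKM. Unlike in group 5, the B copy was the higher one: *Hoxa4* was at 4.34, 3.69 and 4.53 FPKM, a mean of 4.18 ± 0.438 FPKM. The difference of *Hoxa4* minus *Hoxb4* was -3.00 ± 1.22 FPKM, with *Hoxb4* higher in 3 of 3 libraries and no overlap. *Hoxc4* and *Hoxd4* were listed at 0.

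Below *Hoxb4* on the mean came a plateau of genes of groups 2, 3 and 4, known from the hindbrain, the neural crest and the pharyngeal arches. *Hoxa2* was at 4.36, 4.20 and 5.83 FPKM, a mean of 4.80 ± 0.900 FPKM, and lay below *Hoxb4* in every library. *Hoxb2* was at 3.04, 3.70 and 6.27 FPKM, a mean of 4.34 ± 1.71 FPKM. S52 was the high library for both genes, and there *Hoxb2* was above *Hoxb4*, so that the ranges of *Hoxb2* and *Hoxb4* overlapped. *Hoxa3* was at 2.75, 4.96 and 4.95 FPKM, a mean of 4.22 ± 1.28 FPKM, with S38 the low library. *Hoxb3* was at 3.71, 3.93 and 4.91 FPKM, a mean of 4.18 ± 0.638 FPKM. These 4 genes and *Hoxa4* could not be put in order: each overlapped its neighbour, and the A and B copies of groups 2 and 3 changed places between libraries. An exact two-sided sign-flip test over 3 libraries cannot go below p = 0.25, so no order of this kind was called significant.

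2 detected genes of groups 6 and 7 sat at the threshold. *Hoxb6* was at 1.02, 1.06 and 1.39 FPKM, a mean of 1.15 ± 0.204 FPKM, below *Hoxb3* in every library. *Hoxa7* was at 0.924, 1.31 and 0.852 FPKM, a mean of 1.03 ± 0.249 FPKM, and was the detected gene that missed 1 FPKM in some libraries. The ranges of both overlapped. Their partners in the other cluster were lower in 3 of 3 libraries: *Hoxa6* at 0.824, 0.670 and 0.109 FPKM and *Hoxb7* at 0.0236, 0.740 and 0.132 FPKM.

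**Figure D2:**
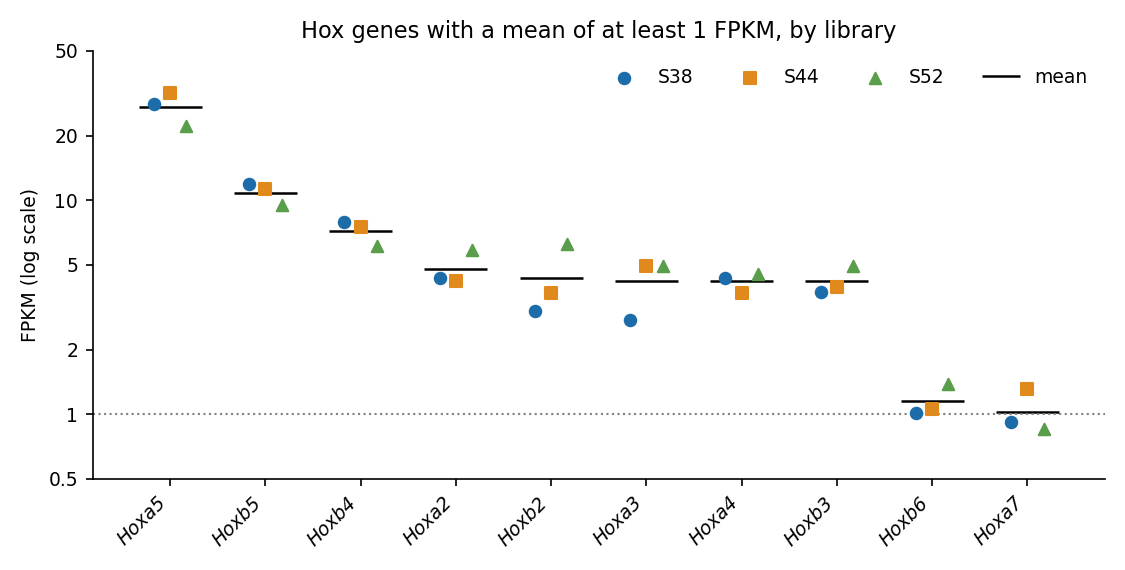
The 10 detected Hox genes in order of their mean; the vertical axis is FPKM on a log scale, each symbol is 1 library, the bar is the mean and the dotted line is 1 FPKM. *Hoxa5* and *Hoxb5* stand clear of the genes below them, *Hoxb4* overlaps *Hoxb2* through S52, and the 5 genes after *Hoxb4* lie between 2.75 and 6.27 FPKM.

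The level fell sharply between neighbours in both clusters at the same place, after group 5. In cluster A the gap between the *Hoxa5* and *Hoxa6* genes is 1700 bp, and the FPKM of *Hoxa5* was 34.2, 47.2 and 205 times that of *Hoxa6* in S38, S44 and S52. In cluster B the *Hoxb5* and *Hoxb6* genes are 1766 bp apart, and the ratio was 11.7, 10.6 and 6.82. The drop was present in every library, and the size of the cluster A ratio rested on *Hoxa6*, which in S52 stood on an estimated 2.62 fragments. At the other end, *Hoxb1* was listed at 0, beside *Hoxb2* with its mean of 4.34 FPKM. In clusters A and B groups 2 to 6, bounds read from these same calls, gave 9 detected genes of 10. Groups 1 to 8 gave 10 of 15 there, and groups 9 to 13 gave 0 of 6. Over all clusters groups 9 to 13 gave 0 of 16, beside 48.3% of all rows.

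**Figure D3:**
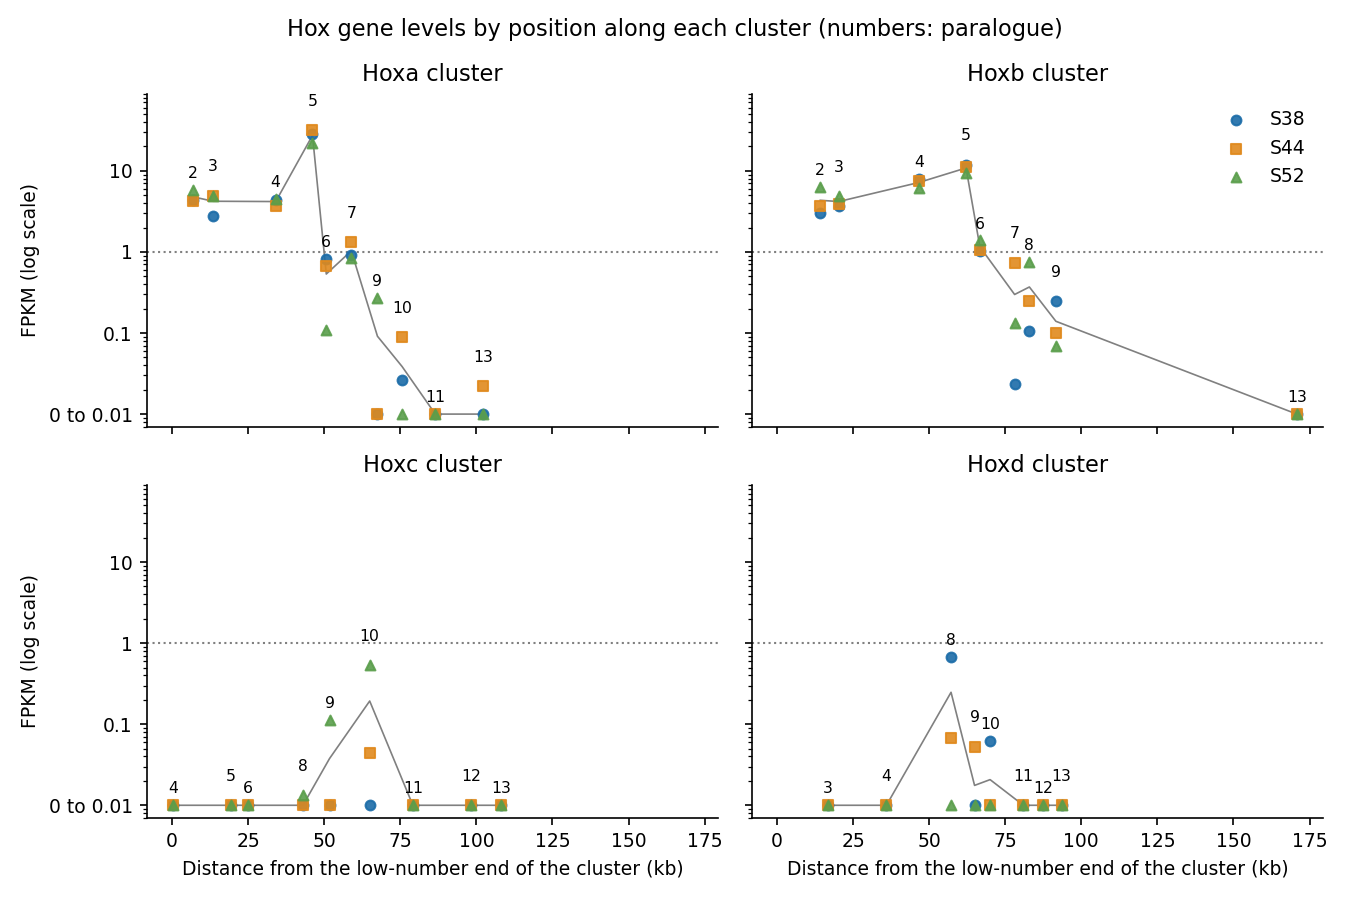
FPKM (log scale) of the Hox genes of groups 2 to 13 against the distance of the 3' end of each gene from the low-number end of the cluster in kb, 1 panel per cluster; symbols are the 3 libraries, the line joins the means, values under 0.01 are drawn at 0.01, and the dotted line is 1 FPKM. Clusters A and B peak at group 5 and are lower right after it, and no symbol of clusters C and D reaches 1 FPKM.

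Summed over its members, cluster A (chr6:52155590-52260880, 105 kb) gave 41.6, 47.3 and 39.3 FPKM in S38, S44 and S52, a mean of 42.7 ± 4.15 FPKM. Cluster B (chr11:96194316-96368256, 174 kb) gave 28.0, 28.5 and 29.1 FPKM, a mean of 28.5 ± 0.581 FPKM. The ratio of A to B was 1.49, 1.66 and 1.35, so cluster A was higher in 3 of 3 libraries. Without *Hoxa5* and *Hoxb5* the order turned, to 15.4 ± 1.88 FPKM for A and 17.7 ± 1.82 FPKM for B, with B higher in 3 of 3 libraries. Cluster C (chr15:102921103-103036852, 116 kb) gave 0, 0.0438 and 0.662 FPKM. Cluster D (chr2:74668310-74765142, 96.8 kb) gave 0.745, 0.120 and 0 FPKM. The small sums of C and D were each carried by 1 gene in 1 library, *Hoxc10* at 0.536 FPKM in S52 and *Hoxd8* at 0.675 FPKM in S38.

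The Hox genes that were not detected fall into those with a trace and those listed at 0. Of the former there were 15, and their highest mean was that of *Hoxa6*, 0.534 FPKM. *Hoxb8* was at 0.106, 0.247 and 0.756 FPKM. *Hoxb9* was at 0.248, 0.101 and 0.0694 FPKM. These genes were above 0 in every library, and their libraries differed by several fold. *Hoxa9*, which is known from endothelial and blood cells, was listed at 0 in S38 and S44 and at 0.274 FPKM in S52. Traces were also listed for *Hoxa10*, *Hoxa13*, *Hoxc8*, *Hoxc9*, *Hoxc10*, *Hoxd8*, *Hoxd9*, *Hoxd10* and *Hoxd11*, each at 0 in at least 1 library.

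Listed at 0 in all 3 libraries were *Hoxa11*, *Hoxb1*, *Hoxb13*, *Hoxc4*, *Hoxc5*, *Hoxc6*, *Hoxc11*, *Hoxc12*, *Hoxc13*, *Hoxd1*, *Hoxd3*, *Hoxd4*, *Hoxd12* and *Hoxd13*. Clusters C and D account for 11 of these 14, out of 18 members, beside 29.5% of all rows listed at 0. All 5 members of C and D in groups 2 to 7 were among them. The bounds 2 to 7 are the numbers detected in A and B, so they were read from these same data. Group 13, the genes of the hindgut, limb ends and genital tract, had 1 value above 0, for *Hoxa13* at 0.0222 FPKM in S44, an estimated 1.93 fragments. As no count is given, depth was estimated from the low values, at 37600000 (S38), 38600000 (S44) and 34200000 (S52) fragments. At that depth a count of 0 (up to 3 fragments, counting error only) allows up to 0.0276 to 0.102 FPKM for these 14 genes, depending on their length. Of the 117 Hox values 58 were above 0, and by this estimate 7 of those stood on 3 fragments or fewer. The estimate takes the longest transcript of each gene. It fell below 1 fragment for *Hoxd11* in S38 (0.296) and *Hoxc8* in S52 (0.772), so such figures are approximate. A value of 0 in a file without counts can also be a failed estimate, so no absence is claimed, and in sorted bulk RNA a few cells with a high level and many cells with a low one cannot be told apart.

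Because reads carry no strand, the level of a gene cannot be separated from that of an RNA transcribed across it, and 12 of the 39 Hox genes share exonic bases with another gene of the basic annotation. *Hoxa5*, *Hoxb5* and *Hoxb4*, the highest genes, share none there, although 50 of 1845 of the 51-base windows of *Hoxb5* recur in 1 other gene of the full annotation and 10 of 2516 of those of *Hoxb4* in 6 other genes, *Hoxa6* among them. *Hoxb2* shares 58.5% and *Hoxb3* 63.9% of their exonic bases with the antisense RNA *Hoxb3os*, which has no row of its own. *Hoxa3* shares 21.2% with antisense RNAs, *Hoxa4* 16.0% and *Hoxa7* 23.3%. *Hoxa2* shares 15.04% with a read-through gene of the same strand, and *Hoxa3* shares 10.07% with that gene as well. The levels of these 6 genes are therefore uncertain by an unknown amount.

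The clusters also hold noncoding RNAs, of which the table has 15 rows inside the 4 spans. *Hotairm1*, an antisense RNA at chr6:52156902-52162119 on the plus strand, beside *Hoxa2* and known from myeloid cells, was at 73.3, 53.0 and 43.8 FPKM, a mean of 56.7 ± 15.1 FPKM. That is above *Hoxa5* in all 3 libraries. *Hoxb5os* was at 0.431, 0.428 and 3.11 FPKM, so its mean of 1.32 FPKM rested on S52. *Hoxaas2* was at 0.802, 1.35 and 0.709 FPKM, and *Hoxaas3* had 1 value above 0, 0.114 FPKM in S44. The other 11 rows, *Hotair*, *Hoxa11os*, *Hoxd3os1* and *Haglr* among them, were listed at 0 in all libraries. Outside the spans, *Hottip* was at 0 throughout and *Halr1* at 0.197 FPKM in S38 alone.

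The microRNAs of the clusters were also listed at 0, in libraries made from poly-A RNA, which do not measure mature microRNAs. The miR-10 and miR-196 sequences are given because these genes are part of the cluster map and fall into 2 seed families. In the RefSeq sequences below capitals mark the seed, bases 2 to 8.
miR-10a-5p: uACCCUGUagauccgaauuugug
miR-10b-5p: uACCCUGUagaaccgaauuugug
miR-196a-5p: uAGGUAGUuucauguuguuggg
miR-196b-5p: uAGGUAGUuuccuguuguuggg
The miR-10a sequence lies at chr11:96317186-96317208, between *Hoxb5* and *Hoxb4*, which were both detected. The miR-10b sequence lies at chr2:74726074-74726096, within *Hoxd4*. Copies of miR-196a stand at chr11:96265187-96265208 and chr15:102973365-102973386, both near group 9 genes, and miR-196b stands at chr6:52230129-52230150, within *Hoxa9*.

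Hox proteins bind DNA with TALE homeodomain cofactors of the Pbx, Meis and Pknox families, and 7 of 9 of them were detected, beside 48.3% of all rows, with a median of 11.2 FPKM. *Meis1* was the highest, with 49.1 FPKM in S38, 48.5 in S44 and 35.4 in S52, above *Hoxa5* in each library. *Meis2* followed at 15.7, 16.2 and 21.4 FPKM. The higher Pbx genes named here were close to each other: *Pbx2* was at 16.5, 14.01 and 17.6 FPKM and *Pbx3* at 11.4, 9.85 and 12.2 FPKM. *Pknox1* was at 6.45, 6.33 and 7.71 FPKM and *Pknox2* at 6.42, 5.04 and 6.23 FPKM. The 2 cofactors below 1 FPKM were *Meis3*, at 0.589, 0.511 and 0.301 FPKM, and *Pbx4*, listed at 0 in S44 and S52.

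Nearly all of the listed chromatin regulators of Hox clusters were detected, beside 48.3% of all rows. Of Polycomb complex PRC2, which methylates lysine 27 of histone H3, 10 of 11 genes were detected with a median of 16.2 FPKM, from *Rbbp7* at 47.7, 43.7 and 64.2 FPKM down to *Phf19* at 0.154, 0.542 and 0.115 FPKM. Of Polycomb complex PRC1, which ubiquitinates histone H2A, all 11 were detected with a median of 7.95 FPKM. Its highest gene was *Phc2* at 51.99, 60.1 and 67.0 FPKM, and its lowest *Cbx2* at 1.67, 0.885 and 1.24 FPKM. Of the opposing MLL complex genes and lysine 27 demethylases all 10 were detected with a median of 13.9 FPKM, from *Dpy30* at 35.4, 34.4 and 30.7 FPKM to *Kmt2a*, the MLL1 methyltransferase, at 7.04, 5.81 and 5.79 FPKM. RNA levels do not show where the complexes were bound.

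**Figure D4:**
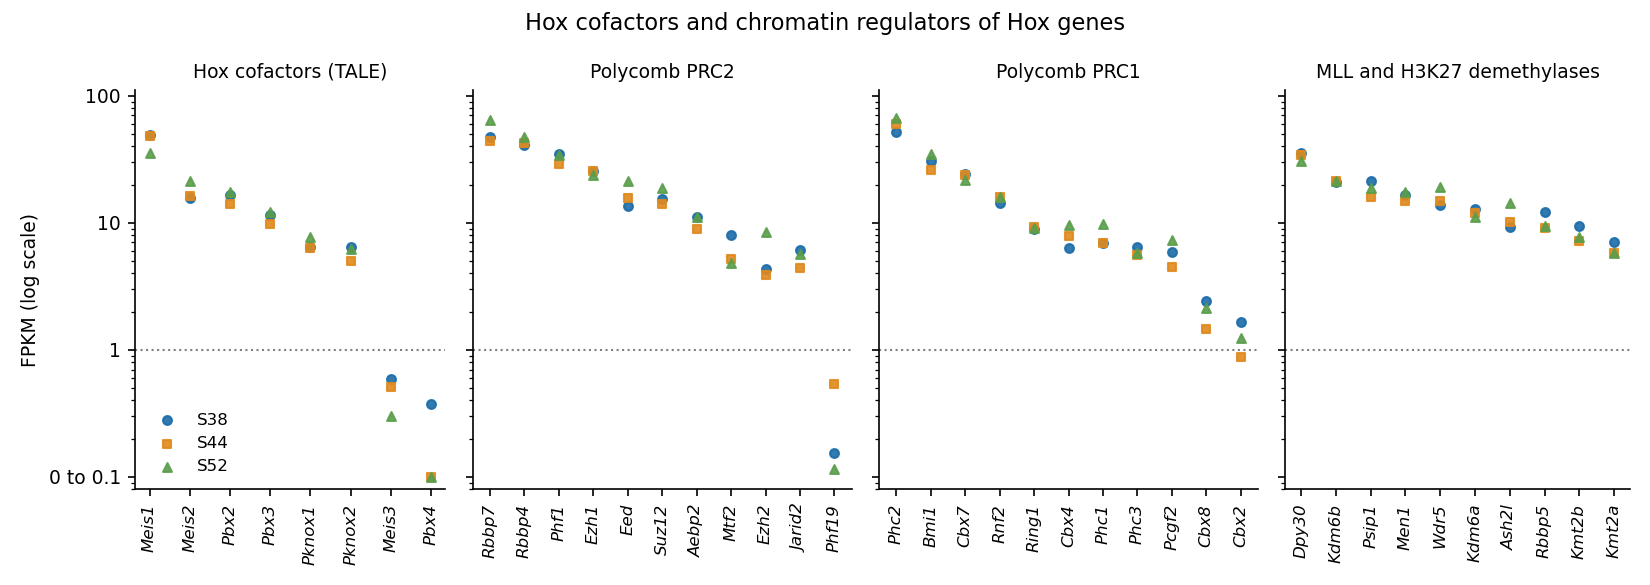
FPKM (log scale) of TALE cofactors, Polycomb PRC2, Polycomb PRC1, and MLL complex and lysine 27 demethylase genes, in order of their mean within each panel; symbols are the 3 libraries, values under 0.1 are drawn at 0.1 and the dotted line is 1 FPKM. Nearly every gene lies above the line, with *Meis3*, *Pbx4* and *Phf19* below it.

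Retinoic acid and the Cdx factors switch on Hox genes in the embryo, and 7 of 15 genes of that list were detected, a share near the 48.3% of all rows, with a median of 0.649 FPKM beside 0.784 FPKM over all rows. *Aldh1a1*, which makes retinoic acid, was the highest at 94.1, 81.3 and 41.7 FPKM. The receptor *Rarg*, named after its values were seen, was at 45.8, 43.8 and 44.1 FPKM. *Cdx1*, *Cdx2* and *Cdx4* were listed at 0 in all libraries. Of the genes that flank the clusters 15 of 20 were detected, beside 48.3% of all rows, with a median of 12.5 FPKM. *Skap2*, a signalling adaptor beside cluster A, was the highest at 150.2, 157 and 125 FPKM, while the homeobox genes *Evx1* and *Evx2*, next to the group 13 ends of clusters A and D, were listed at 0.

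Detection was alike in the 3 libraries, with 9, 10 and 9 Hox genes at 1 FPKM or above in S38, S44 and S52, and the levels differed more. Among the 10 detected genes, *Hoxb2* was the 1 whose highest library was over 2 times its lowest (2.06 times), against 20.1% of all detected rows. The library S52 was the lowest for 4 of the 10 (46.3% of all detected rows) and the highest for 5 of the 10 (33.9%). The genes lower in S52 than in both other libraries were *Hoxa5*, *Hoxa7*, *Hoxb4* and *Hoxb5*, and those higher were *Hoxa2*, *Hoxa4*, *Hoxb2*, *Hoxb3* and *Hoxb6*. The log2 ratio of S52 to S38 was -0.34 for *Hoxa5*, -0.33 for *Hoxb5*, -0.37 for *Hoxb4* and -0.12 for *Hoxa7*. It was 0.42 for *Hoxa2*, 1.05 for *Hoxb2*, 0.85 for *Hoxa3*, 0.40 for *Hoxb3*, 0.06 for *Hoxa4* and 0.45 for *Hoxb6*. The median over all detected rows was -0.09. The lower set was the same 4 genes under 3 other scalings of the libraries. The higher set was not: *Hoxa3* joined it under all 3, and *Hoxa4* left it when libraries were scaled to an equal sum over all rows, which moved the median log2 ratio of all detected rows to -0.39.

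**Figure D5:**
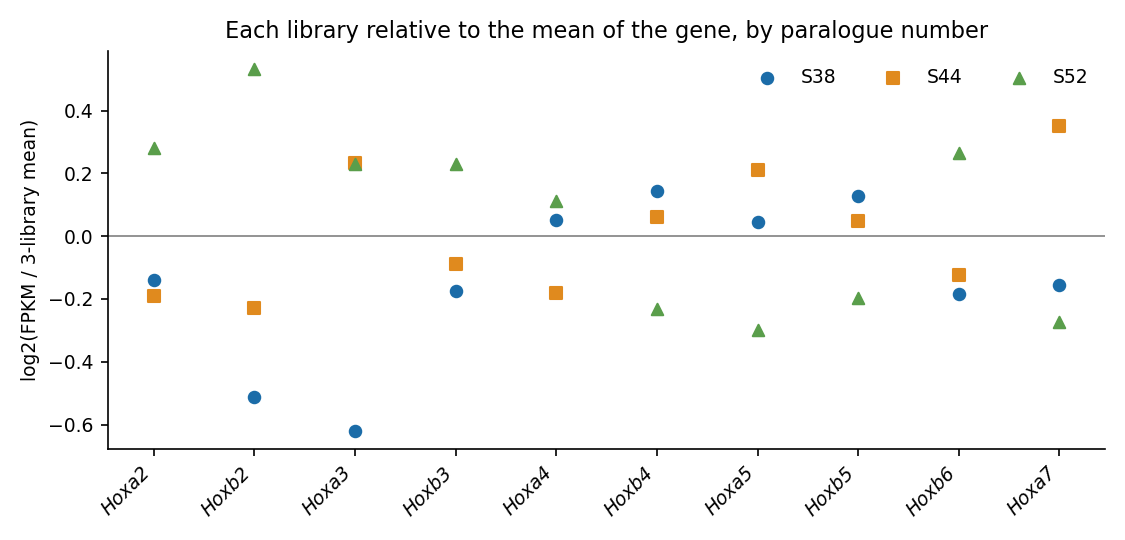
The log2 ratio of each library to the mean of the gene (vertical axis) for the 10 detected Hox genes in order of paralogue number; symbols are the 3 libraries. S52 lies above the mean for groups 2 and 3, *Hoxa4* and *Hoxb6*, and below it for group 5, *Hoxb4* and *Hoxa7*.

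S52 also differed from the others in genes of other lung cells. The 10 endothelial markers summed to 6369, 7058 and 6291 FPKM in S38, S44 and S52, and all of them, from *Pecam1* to *Esam*, were detected. The 5 alveolar type 2 markers, all detected, summed to 3778, 3164 and 755 FPKM, and the 5 airway markers to 2792, 2317 and 418 FPKM. The 4 platelet markers summed to 1692, 1345 and 37.96 FPKM, the 5 leukocyte markers to 1064, 799 and 172 FPKM with *Cd3e* at 0 in S52, and the 5 erythroid markers to 394, 790 and 94.6 FPKM. Hox genes are also active in lung mesenchyme. The 6 fibroblast markers, all detected, summed to 95.7, 78.8 and 61.4 FPKM. Of these 3 of 6 were lowest in S52, a share near the 46.3% of all detected rows. They were *Dcn* at 47.4, 35.5 and 19.8 FPKM, *Col3a1* at 9.47, 9.32 and 5.95 FPKM, and *Col1a1* at 6.67, 5.40 and 4.65 FPKM. *Pdgfra*, at 7.13, 5.86 and 7.72 FPKM, was highest in S52. So was *Tcf21*, but it was nearly level, at 13.1, 13.5 and 13.6 FPKM. The 6 mural markers, all detected, summed to 120.0, 62.0 and 118 FPKM, mostly from *Acta2* at 90.3, 46.7 and 79.7 FPKM. Of these 0 of 6 were lowest in S52, beside the same 46.3%. *Pdgfrb*, *Cspg4*, *Rgs5* and *Notch3* were highest there. Of the 4 lymphatic markers 3 were detected, and their sum of 565, 623 and 414 FPKM was nearly all *Lyve1*, while *Prox1*, at 0.132, 0.173 and 0.598 FPKM, and *Pdpn*, at 2.39, 1.84 and 3.09 FPKM, were highest in S52. Mesothelial markers (1 of 4 detected) summed to 2.34, 6.14 and 0 FPKM. The part of other cells in the Hox levels was not tested.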

How the data were processed

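RNA-seq of adult lung ECs from 3 libraries was used. The table that the authors deposited holds FPKM for each gene symbol, on mm10. The submitters' processing notes name bcl2fastq 2.17, FastQC 0.11.5, Trimmomatic 0.36, TopHat2 2.1.0 and Cufflinks 2.2.1, while the methods of the study describe STAR alignment and HTSeq counting. Which of these made the FPKM values, and with which gene annotation, is not given in the sources used here.

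FPKM values were used as deposited, with no pseudocount in the levels. Detection required a mean over the 3 libraries of 1 FPKM or more. With 3 libraries of 1 condition no groups were compared and no count model was fitted. All 39 members were counted, and of the other lists the highest and lowest genes and the Pbx, Meis and Pknox genes were named. Some of the genes so chosen are not reported here. Members and lists were chosen with earlier results of these data known. Of the per-sample columns 0 were left out.

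Depth was estimated from FPKM multiplied by transcript length (less 150, 150 and 170 bp in S38, S44 and S52), as the step that makes low values whole. Of the low values used, 79.0%, 77.1% and 77.1% then lay within 0.15 of a whole number. This procedure was set up with the values in view. On simulated data for 7077 genes it recovered 3 known depths within 0.0179%. Those data were whole counts with a single exact length per gene, as the procedure assumes. The recovery therefore cannot show how accurate the depths of these libraries are. Positions came from GENCODE M21 (39 of 39 members found), promoter and microRNA sequences from RefSeq on GRCm38.p6. Python 3.11.15, pandas 2.3.3, NumPy 2.4.6 and matplotlib 3.10.9 were used. Alternatives were other detection thresholds, 3 scalings, leaving out each library and other fold limits.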

Additional observations from a re-analysis of the deposited data

How the results depend on the processing

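The number of detected Hox genes stayed between 8 and 11 under every alternative but one, and was 17 at a threshold of 0.1 FPKM. Without each library in turn it was 9 to 10. Scaling each library to the same sum over all rows gave 31.1 FPKM for cluster A and 20.8 FPKM for cluster B. Scaling outside short noncoding genes gave 90.5 and 60.5 FPKM. The order A above B could not change under such scalings, because A was higher within every library. Leaving out each library gave 40.4 to 44.5 FPKM for A and 28.2 to 28.8 FPKM for B. The number of detected Hox genes over 2-fold between libraries was 0 and 2 under those scalings, 0 to 1 without each library (0 without S38 or without S52, since *Hoxb2* was lowest in S38 and highest in S52), 0 on FPKM + 1, 3 with a fold limit of 1.5, and 10 with no filter on low values and 0.1 added. No paired analysis was possible because all libraries belong to 1 condition. The columns sum to 1153890, 1603596 and 1419351 FPKM, of which short noncoding genes take 59.6%, 70.2% and 66.8%, so levels depend on the scaling while ratios within a library do not. Depth is an estimate, and values under 0.1 FPKM rest on few fragments.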
